A study of Homo sapiens with 8 samples.

Results

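The cluster of miR-183, miR-96 and miR-182 is a group of 3 microRNA (miRNA) genes that lie side by side on human chromosome 7. Its members here are the 3 guide arms, hsa-miR-183-5p, hsa-miR-96-5p and hsa-miR-182-5p, chosen by name and listed in each of the 3 deposited tables, out of 945 miRNA features in all. Small RNA was sequenced from H1299 cells, a widely used p53-null line of lung carcinoma (non-small cell), in 4 groups of 2 libraries. The EV groups carried an empty vector and were untreated or treated with etoposide, which traps topoisomerase II on DNA and breaks the strands. The R273H groups stably expressed the p53 mutant R273H from a pCMV plasmid and were untreated or treated in the same manner. Treatment lasted 24 h, and the dose is written as 10 µM in one description and 10 mM in another. After transfection, colonies resistant to G418 were expanded into the R273H line, which was then grown with G418 at a lower dose than in selection. The EV cells were infected with their vector and came from another laboratory, and no G418 is stated for them. The vector history and G418 exposure of a line therefore cannot be told apart from its p53 status. All cells were at passages 15 to 20. The paper describes the replicates of its untreated groups as biological. Nothing states, however, that the 2 libraries of a group came from separate cultures, so p-values measure only the spread between these libraries.

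The cluster is transcribed as 1 long precursor from which Drosha and Dicer cut the individual hairpins and mature arms. It is best known from sensory cells, where mutations in the seed of miR-96 cause hearing loss, and it is raised in many carcinomas. Reported targets include FOXO1, a transcription factor that slows growth, for miR-96 and miR-182, and BRCA1, a homologous recombination protein, for miR-182. A seed (bases 2 to 8 from the 5′ end) sets most of the target choice of a miRNA, so the members are compared first by their seeds.

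The mature sequences are shown because the seeds of the members are alike but not identical. They are written 5′ to 3′ from the RefSeq table of GRCh38.p14, with the seed in capitals.
hsa-miR-183-5p: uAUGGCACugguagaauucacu
hsa-miR-96-5p: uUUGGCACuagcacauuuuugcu
hsa-miR-182-5p: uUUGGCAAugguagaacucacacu
Counted from 1 at the 5′ end, the seed of miR-96-5p departs from that of miR-183-5p by A2U, and 6 of 7 seed bases are identical. Between miR-96-5p and miR-182-5p the seed change is C8A, again with 6 of 7 bases identical. miR-183-5p and miR-182-5p differ in the seed by both A2U and C8A, with 5 of 7 bases identical. Outside the seed, miR-183-5p and miR-182-5p share the run ugguagaa from base 9 in each, which miR-96-5p lacks. Over the whole mature sequence the edit distance was 5 between miR-183-5p and miR-182-5p, 8 between miR-183-5p and miR-96-5p and 10 between miR-96-5p and miR-182-5p, so a read of one arm is some bases away from every other arm.

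Each of the 3 seeds was looked up among the human mature miRNAs of the RefSeq table. The seeds of miR-183-5p and miR-182-5p belonged to 1 miRNA each, and the seed of miR-96-5p was shared with hsa-miR-1271-5p, which is not among the listed features.
hsa-miR-1271-5p: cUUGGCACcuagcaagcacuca

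The hairpins of MIR96 and MIR182 are shown with both mature arms in capitals, since both arms were counted. They come from the same RefSeq table, and their letters are identical in GRCh37.
MIR96: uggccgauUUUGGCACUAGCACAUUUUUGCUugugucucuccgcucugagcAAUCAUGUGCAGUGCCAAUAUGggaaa
MIR182: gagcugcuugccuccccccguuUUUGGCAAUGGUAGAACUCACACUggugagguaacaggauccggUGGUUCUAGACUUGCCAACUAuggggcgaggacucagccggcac

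All 3 genes lie on the minus strand of chromosome 7 (GRCh37, annotation of GENCODE 44 lifted to it). MIR183 is at chr7:129414745-129414854, MIR96 at chr7:129414532-129414609 and MIR182 at chr7:129410223-129410332. MIR183 and MIR96 are 135 bases apart, MIR96 and MIR182 are 4199 bases apart, and the cluster spans 4632 bases. The hairpins fall in introns of ENSG00000286380, a long non-coding RNA on the same strand, and overlap an exon in 0 of its 5 transcripts. The nearest protein-coding genes are NRF1, a regulator of nuclear genes for mitochondria, and UBE2H, a ubiquitin-conjugating enzyme. The mature arms map to chr7:129414807-129414828 for miR-183-5p, chr7:129414579-129414601 for miR-96-5p and chr7:129410287-129410310 for miR-182-5p.

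The libraries held 213007 to 536991 miRNA reads, of which miR-21-5p took 30.6% to 44.5%. Of 8 miRNAs that mark liver, muscle, blood cells or neurons, 7 were listed, and their summed reads ranged from 1 to 43 per library, against 703 to 1543 for the 3 cluster members. The epithelial miR-200 family, with 5 of 5 listed, summed to 0 to 11 reads per library. p53 and its mutant cannot be checked in small RNA. The 2 libraries of a group differed by more than counting error, with chi-square values of 38.1 to 89.0 for each degree of freedom.

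The members were moderately abundant in every library. miR-183-5p ranked between 48 and 62 among the miRNAs of a library, miR-96-5p between 55 and 79, and miR-182-5p between 47 and 59. Together they took 0.203% to 0.478% of the miRNA reads. In reads, miR-182-5p and miR-183-5p were close together, with their ratio on either side of 1, and miR-96-5p was below both in each of the 8 libraries. The arms are 22 to 24 bases long, so their reads were compared with no correction for length.

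For miR-183-5p, 498 and 304 reads were counted in untreated EV, 417 and 356 in etoposide-treated EV, 304 and 304 in untreated R273H, and 573 and 685 in etoposide-treated R273H. Counted per 1000000 miRNA reads of the library (CPM) these are 927 and 1217, 1958 and 983, 673 and 747, and 1131 and 1964. Untreated R273H was lowest and did not overlap with any other group. The etoposide-treated groups each held 1 library far above its partner and overlapped with each other. By chance alone, 2 libraries lie apart from 2 others with a probability of 0.333. The share of all miRNAs that do so was not counted.

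For miR-182-5p, the reads were 526 and 308 in untreated EV, 445 and 422 in treated EV, 346 and 348 in untreated R273H, and 494 and 558 in treated R273H. In CPM, its levels were 980 and 1233, 2089 and 1165, 766 and 856, and 975 and 1600 in the same order. As for miR-183-5p, the first treated EV library and the second treated R273H library were the highest and the untreated R273H libraries the lowest.

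For miR-96-5p, the reads were 225 and 91 in untreated EV, 157 and 159 in treated EV, 267 and 279 in untreated R273H, and 408 and 300 in treated R273H. Its levels in CPM were 419 and 364, 737 and 439, 591 and 686, and 805 and 860. Here untreated R273H stood above untreated EV with no overlap, the opposite of the order for the other two members.

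**Figure D1:**
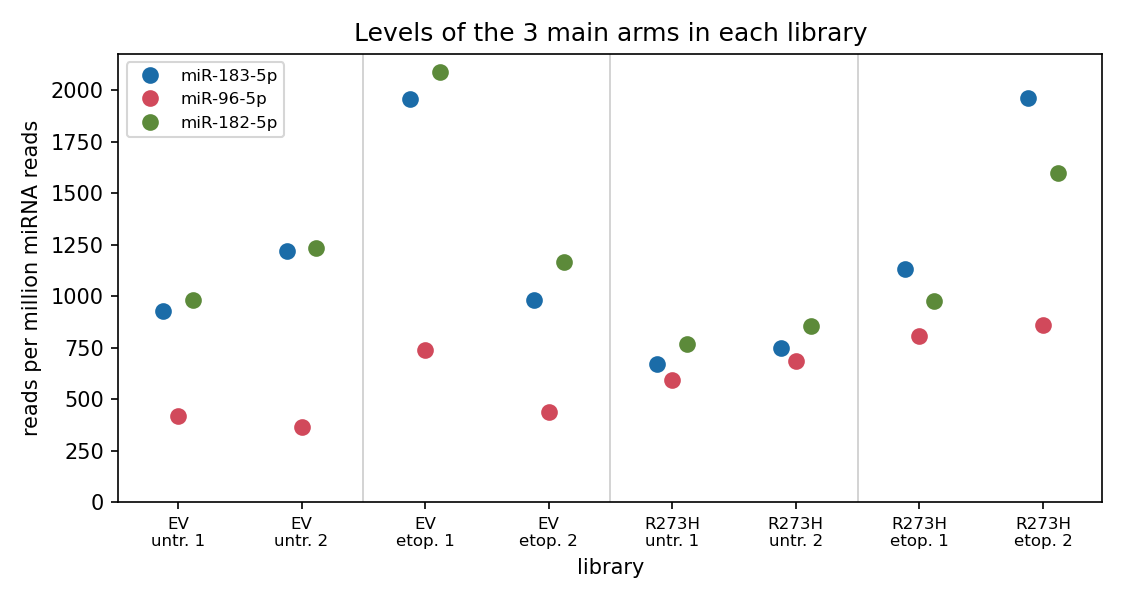
Level of each guide arm, in CPM of the miRNA reads (vertical axis), in each of the 8 libraries (horizontal axis; untr., untreated; etop., etoposide; 1 point is 1 library). miR-183-5p and miR-182-5p lie close together, and miR-96-5p lies well below them in EV and nearer to them in untreated R273H.

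A level in CPM depends on what the other miRNAs of the library do, but the make-up of the cluster within a library does not. miR-96-5p made up 18.0% and 12.9% of the reads of the 3 members in untreated EV and 15.4% and 16.97% in treated EV. In R273H it made up 29.1% and 29.97% in the untreated libraries and 27.7% and 19.4% in the treated ones. The 4 R273H libraries were all above the 4 EV libraries, with means of 26.5% ± 4.83 (SD, n = 4) and 15.8% ± 2.20 (SD, n = 4). The nearest libraries of the 2 lines, the first untreated EV library and the second treated R273H library, had 95% Wilson intervals of 16.0% to 20.2% and 17.5% to 21.5%, which overlap. These intervals cover counting error only.

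The share of miR-182-5p was lower in R273H, with 42.1% to 45.0% in EV and 33.5% to 37.7% in R273H and no overlap between the lines. The share of miR-183-5p was 38.0% to 43.2% in EV and 32.7% to 44.4% in R273H, and these ranges overlapped. Since the 3 shares of a library sum to the whole, they are not independent of each other. By chance alone, 4 libraries lie apart from 4 others with a probability of 0.0286. How often shares of unrelated miRNAs separate the lines in this way was not counted. Averaged over both treatments, edgeR called 36.8% of all miRNAs between the lines, so such a separation need not be particular to the cluster.

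**Figure D2:**
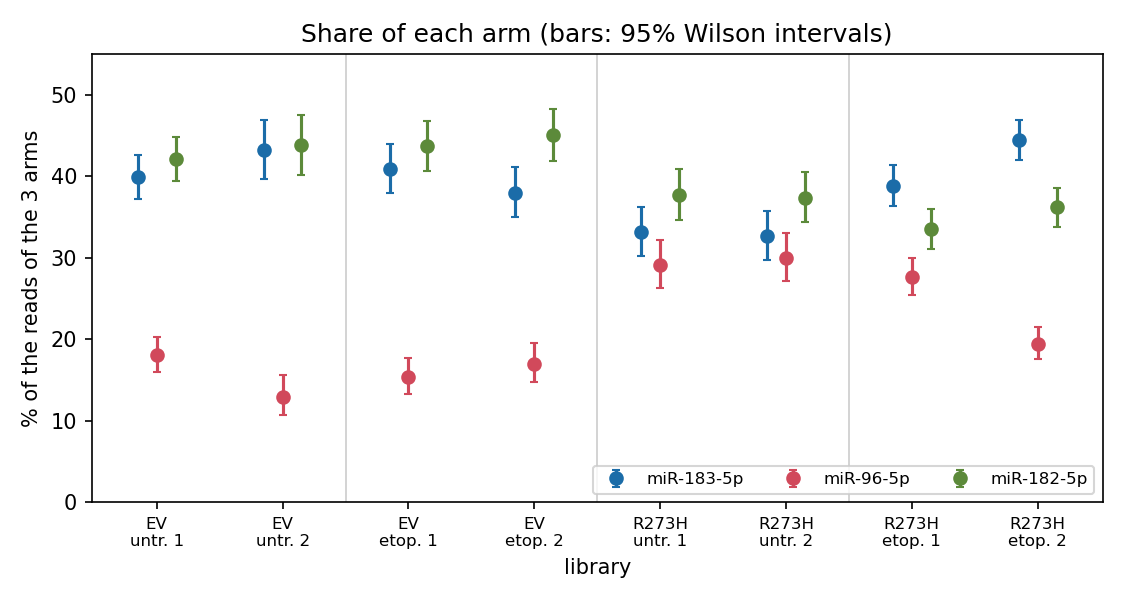
Share of each guide arm among the reads of the 3 members (vertical axis, in percent) in each library (horizontal axis), with 95% Wilson intervals as bars. The points of miR-96-5p lie between 12.9% and 18.0% in EV and between 19.4% and 29.97% in R273H.

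The same was seen in ratios of reads between members. The ratio of miR-96-5p to miR-182-5p was 0.428, 0.295, 0.353 and 0.377 in the EV libraries and 0.772, 0.802, 0.826 and 0.538 in the R273H libraries, in the order untreated then treated. All R273H libraries were above all EV libraries, and the mean log2 ratio was higher by 1.01 in R273H. A two-sided exact permutation test of 4 against 4 libraries gave p = 0.0286, the smallest it allows, and an adjusted p of 0.171 over the 6 ratio comparisons made. This difference did not pass the correction. A ratio that alone reaches the smallest p cannot pass over 6 comparisons, however large its difference, so the adjusted p does not decide the question. The ratio of miR-96-5p to miR-183-5p was 0.452, 0.299, 0.376 and 0.447 in EV and 0.878, 0.918, 0.712 and 0.438 in R273H. Here the second treated R273H library lay within the EV range, and the log2 difference was 0.86 (exact permutation p = 0.0857, adjusted p = 0.257). The ratio of miR-182-5p to miR-183-5p stayed near 1, with 1.06, 1.01, 1.07 and 1.19 in EV and 1.14, 1.14, 0.862 and 0.815 in R273H. Its log2 difference between the lines was -0.14 (exact permutation p = 0.371, adjusted p = 0.557), and only the treated R273H libraries had more miR-183-5p than miR-182-5p.

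The pattern over the 8 libraries was then set against every miRNA with a mean of at least 50 reads, 130 comparisons for each member, by Pearson's r of log2 CPM. These are descriptions over libraries that share their depth and their scaling. For miR-183-5p the most similar miRNA was miR-182-5p (r = 0.946), followed by miR-574-3p (r = 0.915) and miR-186-5p (r = 0.912). For miR-182-5p they were let-7g-5p (r = 0.959), miR-27a-3p (r = 0.948) and miR-183-5p (r = 0.946). For miR-96-5p they were miR-16-5p (r = 0.992), miR-10a-5p (r = 0.950) and miR-34c-5p (r = 0.945). miR-183-5p was only number 73 and miR-182-5p number 80 in the order for miR-96-5p, with r = 0.374 and r = 0.234. The ranks of the members for each other depend on the setting. With Spearman's rho or a mean of at least 10 reads, 9 rank values moved and 3 stayed the same.

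The comparison of untreated R273H with untreated EV asks which miRNAs differ between the line with the p53 mutant and the EV line. In the deposited normalized counts (reads divided by a size factor per library), miR-96-5p was at 155.77 and 145.03 in EV and at 273.96 and 247.97 in R273H. Both R273H libraries were above both EV libraries, by 1.73-fold (log2 fold change 0.79, SE 0.32). The unadjusted limma p was 0.0247 and the adjusted p 0.0883 over 304 miRNAs, which misses the threshold of 0.05. DESeq2 on the recovered reads gave an adjusted p of 0.0381, but it also called more of all miRNAs here than limma did. miR-183-5p was at 344.77 and 484.50 in EV and at 311.92 and 270.19 in R273H, lower in R273H with no overlap (log2 fold change -0.49, SE 0.32, limma adjusted p = 0.276). miR-182-5p was at 364.16 and 490.88 in EV and at 355.02 and 309.30 in R273H, again with no overlap (log2 fold change -0.35, SE 0.31, limma adjusted p = 0.448). None of the 3 members was called by limma, against 20.4% of all miRNAs tested. At an unadjusted limma p under 0.05 there was 1 member, beside 99 of all 304 miRNAs. With the thresholds of the study, an unadjusted p under 0.05 and at least a 2-fold change, applied to the limma fit, 0 of 3 members and 27.3% of all miRNAs passed. The study itself used p-values from DESeq, so this share is not its own result. With 2 libraries against 2 a permutation test cannot go below 0.333, so these p-values come from the fit across all miRNAs. For the same reason a lack of overlap is common by chance, and its share over all miRNAs was not counted.

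**Figure D3:**
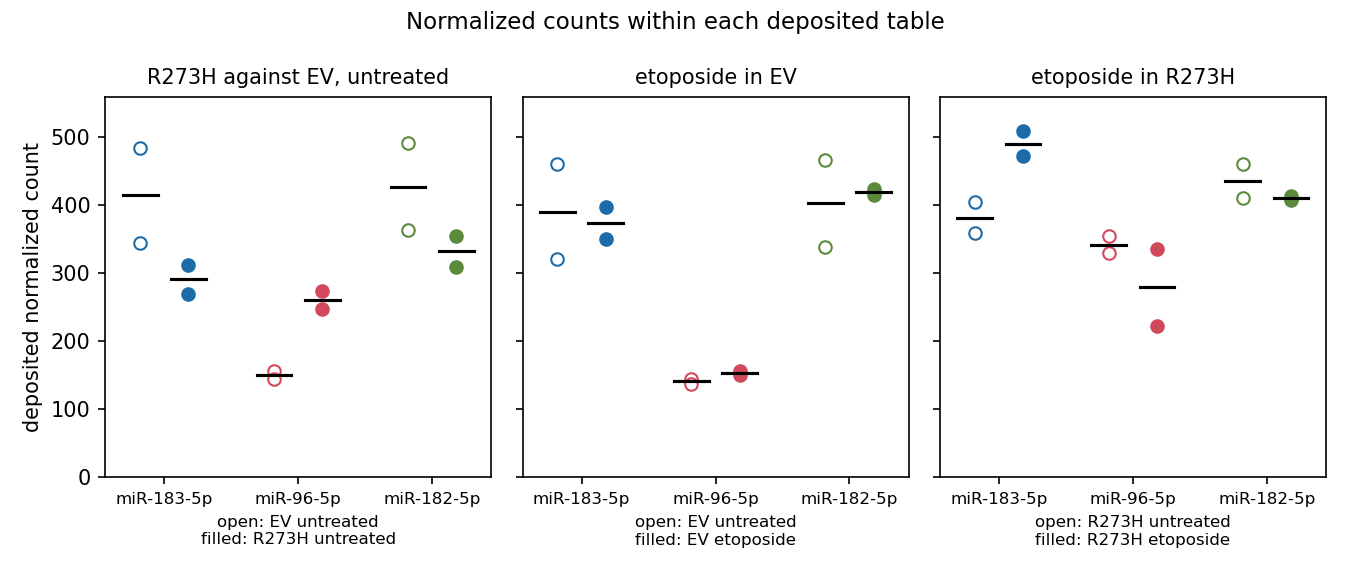
Deposited normalized counts (vertical axis) of the 3 members in each of the 3 separately normalized tables, 1 panel a table; each point is 1 library and each black line the mean of 2. In the left panel miR-96-5p lies at 145.03 and 155.77 in EV and at 247.97 and 273.96 in R273H, whereas in the other panels most treated and untreated points lie close together.

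None of the 3 tables sets the treated lines side by side, so edgeR was fitted to the recovered reads of the 8 libraries. The log2 fold change of R273H over EV was -0.66 (SE 0.33) for miR-182-5p, -0.24 (SE 0.33) for miR-183-5p and 0.23 (SE 0.33) for miR-96-5p. The edgeR adjusted p-values were 0.149, 0.671 and 0.693, so 0 of 3 members passed against 22.5% of all miRNAs, and 0 members passed with DESeq2. At an unadjusted edgeR p under 0.05 there was 1 member, beside 107 of all 334 miRNAs. For miR-96-5p the direction turned to -0.03 without the first treated R273H library, and for miR-183-5p it turned to 0.10 with limma on CPM.

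Averaged over both treatments, with 4 libraries a side, miR-182-5p fell by 0.60 on the log2 scale in R273H (SE 0.23, 0.659-fold, edgeR adjusted p = 0.0326). It was the 1 member called, beside 36.8% of all miRNAs tested in this comparison. miR-183-5p had a log2 fold change of -0.46 (SE 0.23, edgeR adjusted p = 0.111) and miR-96-5p one of 0.42 (SE 0.24, edgeR adjusted p = 0.162). With DESeq2 miR-96-5p was also called (log2 fold change 0.49, adjusted p = 0.0311). The share of all miRNAs that DESeq2 called in this comparison is not given here, so this call has no background of its own. The call of miR-182-5p was lost with RLE size factors (edgeR adjusted p = 0.0670), without a filter on low reads (edgeR adjusted p = 0.270) and with limma on CPM (adjusted p = 0.391). It was also lost without the second untreated EV, the first treated EV, the second untreated R273H or either treated R273H library, with edgeR adjusted p-values from 0.0615 to 0.180.

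The etoposide comparisons ask how the DNA-damaging drug changes miRNAs in each line. In EV, miR-183-5p was at 321.18 and 460.16 in untreated and at 397.64 and 350.30 in treated cells. miR-182-5p was at 339.24 and 466.22 untreated and 424.34 and 415.25 treated, and miR-96-5p at 145.11 and 137.75 untreated and 149.71 and 156.46 treated. The treated libraries lay inside the untreated range for miR-183-5p and miR-182-5p and just above it for miR-96-5p. The log2 fold changes were -0.04 (95% interval -0.74 to 0.65), 0.08 (-0.62 to 0.77) and 0.11 (-0.60 to 0.83), each with a limma adjusted p of 0.993. No member was called by limma, against 0.676% of all miRNAs tested, and edgeR and DESeq2 called none of the 3. None had an unadjusted limma p under 0.05, against 24 of all 296 miRNAs.

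In R273H, miR-183-5p was at 404.19 and 358.98 in untreated and at 472.41 and 508.56 in treated cells, with no overlap (log2 fold change 0.36, 95% interval -0.31 to 1.04, limma adjusted p = 0.728). A lack of overlap between 2 and 2 libraries has a probability of 0.333 by chance. miR-96-5p was at 355.00 and 329.46 untreated and 336.37 and 222.73 treated (log2 fold change -0.32, 95% interval -1.03 to 0.39, limma adjusted p = 0.777). miR-182-5p was at 460.03 and 410.94 untreated and 407.27 and 414.27 treated (log2 fold change -0.08, 95% interval -0.76 to 0.59, limma adjusted p = 0.972). limma called 0% of all 341 miRNAs tested here, with 31 at an unadjusted p under 0.05, none of them a member. edgeR on the same reads called 0 and DESeq2 called 2.

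These etoposide values depend on the scaling. miR-21-5p took 41.3% and 41.3% of the miRNA reads in untreated and 33.5% and 44.5% in treated EV, and 43.8% and 38.2% in untreated and 37.4% and 30.6% in treated R273H. In plain CPM the log2 changes were 0.38 for miR-183-5p, 0.54 for miR-96-5p and 0.51 for miR-182-5p in EV, and 1.07, 0.39 and 0.62 in R273H. Leaving miR-21-5p out of the total gave 0.91, 0.22 and 0.46 in R273H, so the directions for miR-96-5p and miR-182-5p in R273H and for miR-183-5p in EV turned. The part of miR-21-5p in these values was not tested.

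Averaged over both lines, the edgeR log2 change with etoposide was 0.16 (95% interval -0.31 to 0.62) for miR-183-5p, -0.10 (-0.56 to 0.37) for miR-96-5p and -0.01 (-0.47 to 0.45) for miR-182-5p. None was called by edgeR or DESeq2, where edgeR called 2.99% of all miRNAs tested. None had an unadjusted edgeR p under 0.05, against 42 of all 334 miRNAs. The difference of the etoposide responses, R273H minus EV, was 0.44 (95% interval -0.48 to 1.36) for miR-183-5p, -0.38 (-1.31 to 0.54) for miR-96-5p and -0.12 (-1.05 to 0.80) for miR-182-5p. For this interaction edgeR called 0% of 334 miRNAs, with 12 at an unadjusted p under 0.05, and DESeq2 called 0. Changes within these intervals could not be detected with these libraries.

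**Figure D4:**
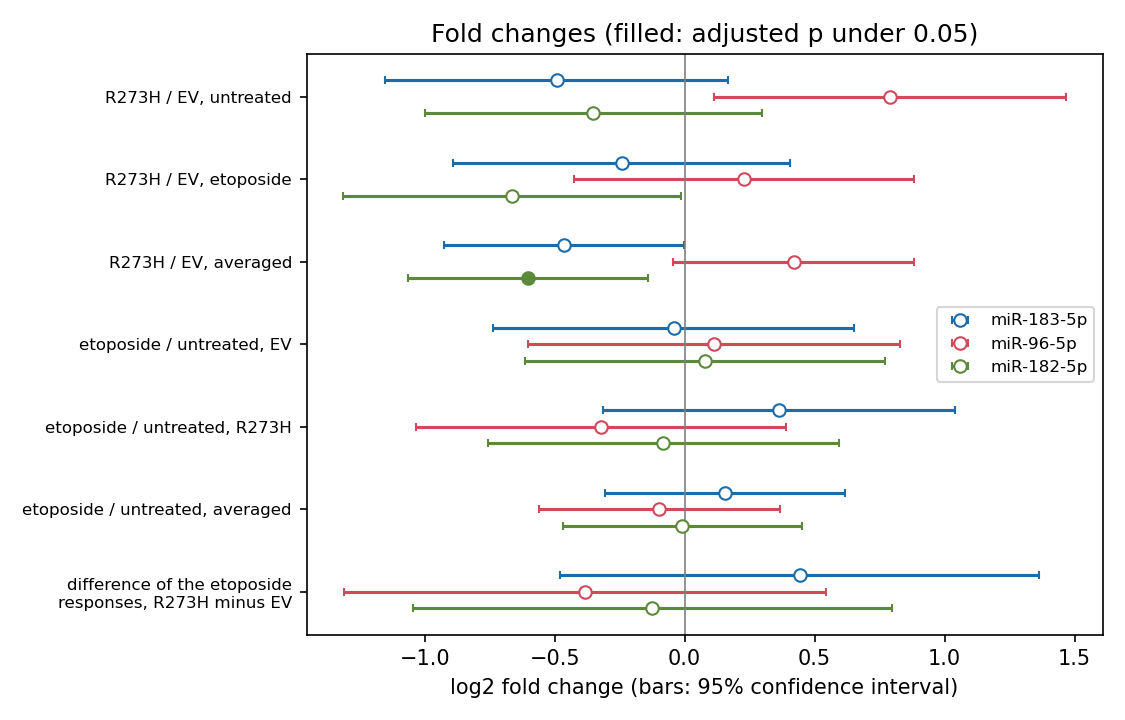
Log2 fold changes of the 3 members (horizontal axis, with 95% confidence intervals) in 7 comparisons (vertical axis); filled points have an adjusted p under 0.05. miR-182-5p averaged over both treatments is the filled point, and every interval of the etoposide comparisons spans 0.

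The other arms of the hairpins, the passenger strands, were rare. miR-183-3p had 12 and 8 reads in untreated EV, 15 and 6 in treated EV, 12 and 10 in untreated R273H and 22 and 19 in treated R273H. miR-96-3p had 7 and 7, 16 and 10, 17 and 17, and 22 and 36 reads in the same order. miR-182-3p had 4 and 2, 4 and 0, 3 and 13, and 6 and 9 reads. Over all libraries the 3p arm took 2.93% of the reads of miR-183, 6.54% of those of miR-96 and 1.18% of those of miR-182, with 95% Wilson intervals of 2.43% to 3.54%, 5.54% to 7.70% and 0.868% to 1.59%. These intervals of the summed reads do not overlap, but they cover counting error only. In single libraries the 3p share ranged from 1.66% to 3.797% for miR-183, from 3.02% to 10.7% for miR-96 and from 0% to 3.60% for miR-182, and these ranges overlap in part; the 0 of 422 reads of miR-182 has an upper Wilson limit of 0.902%.

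Between untreated R273H and EV, miR-96-3p was at normalized counts of 4.85 and 11.16 in EV and 17.44 and 15.11 in R273H, in the same direction as its guide arm (log2 fold change 1.03, SE 0.54, limma adjusted p = 0.192). miR-183-3p had a log2 fold change of 0.02 (SE 0.53, limma adjusted p = 0.979) and miR-182-3p one of 0.85 (SE 0.66, limma adjusted p = 0.374). No 3p arm passed in any comparison in which it was tested (miR-182-3p was below the filter for etoposide in EV), and the share of the miR-96 reads on the 3p arm ranged from 3.02% to 9.25% in EV and from 5.12% to 10.7% in R273H, which overlap.

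Other miRNAs of the long arm of chromosome 7, most of them in the same band, 7q32, were looked at next. Of 10 arms listed for MIR129-1, MIR335, MIR29A, MIR29B1 and MIR490, 8 were present and 5 were tested between the untreated lines. 2 rose in R273H and 0 fell, where 20.4% of all miRNAs were called, with a median log2 fold change of 0.71 against 0.10 over all miRNAs tested. miR-29b-3p, which restrains collagen genes and can also come from a second locus on another chromosome, was counted 29227 and 11286 times in untreated EV and 44293 and 44915 times in untreated R273H (log2 fold change 1.16, SE 0.24, limma adjusted p = 0.00314). miR-29b-1-5p rose by 1.81 (SE 0.50, limma adjusted p = 0.0163) on 11 and 4 against 21 and 38 reads. miR-335-5p went the other way and fell by 1.54 on the log2 scale averaged over both treatments (SE 0.43, edgeR adjusted p = 0.00217), where 1 of 7 tested arms rose and 1 fell, beside 36.8% of all miRNAs called. Under etoposide the R273H line had higher miR-29b-3p (log2 fold change 1.77, edgeR adjusted p = 0.00115) and lower miR-335-5p (-1.46, edgeR adjusted p = 0.0417) and miR-129-1-3p, the last on 5 and 16 reads against 1 and 0. In this comparison 22.5% of all miRNAs were called. With etoposide miR-29b-3p fell by 2.10 in EV (SE 0.54, limma adjusted p = 0.0172), 1 of 6 arms tested there, beside 0.676% of all miRNAs called. In R273H 0 of 6 were called, where 0% of all miRNAs were. Averaged over both lines miR-29b-3p fell by 1.48 (SE 0.31, edgeR adjusted p = 0.000346), again the 1 arm called of 7, beside 2.99% of all miRNAs. In the response difference between the lines 0 of 7 were called, where 0% of all miRNAs were.

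The cluster was also set beside 12 miRNAs known to repress genes of the DNA damage response, all of them listed. Between the untreated lines 11 were tested, of which 1 rose and 2 fell in R273H, beside 20.4% of all miRNAs called, with a median log2 fold change of -0.10 against 0.10 over all. miR-18a-5p, a repressor of the damage kinase ATM, rose by 1.64 (SE 0.34, limma adjusted p = 0.00287), from 3069 and 1477 reads to 10875 and 4934. miR-138-5p, a repressor of histone H2AX, fell by 1.87 (SE 0.38, limma adjusted p = 0.00287), with 175 and 73 against 30 and 37 reads. miR-9-5p, a repressor of BRCA1, fell by 1.55 (SE 0.36, limma adjusted p = 0.00520), with 232 and 121 against 51 and 76 reads. Under etoposide 2 of 12 were higher and 3 lower in R273H, beside 22.5% of all miRNAs called, among them miR-100-5p, another repressor of ATM, at -1.35 (edgeR adjusted p = 0.00870). miR-146a-5p had 0 reads in all 4 EV libraries and 4, 5, 11 and 13 in R273H, so it was called under etoposide and on average without a usable fold. Averaged over treatments 3 rose and 4 fell of 12, beside 36.8% of all miRNAs called, with miR-24-3p, another repressor of H2AX, at -0.78 (edgeR adjusted p = 0.0202), miR-100-5p at -1.09 (edgeR adjusted p = 0.000881) and the hypoxia-induced miR-210-3p at 1.15 (edgeR adjusted p = 0.0208) beside those named. With etoposide 0 of 11 were called in EV and 0 of 12 in R273H, beside 0.676% and 0% of all miRNAs. The medians were 0.11 and 0.09 against -0.03 and 0.02 over all. Averaged over both lines only miR-18a-5p passed, beside 2.99% of all miRNAs, and fell by 0.87 (SE 0.26, edgeR adjusted p = 0.0398).

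Of 5 miRNAs that share FOXO1 as a reported target with the cluster, 3 were listed and 2 could be tested, miR-27a-3p and miR-9-5p. miR-9-5p was lower in R273H in each line comparison, by 1.55 untreated and by 1.61 under etoposide (log2 fold change -1.61, edgeR adjusted p = 0.000156). miR-27a-3p was not called in any line comparison, where 20.4% to 36.8% of all miRNAs were called. With etoposide 0 of 2 were called, beside 0.676% of all miRNAs in EV, 0% in R273H and 2.99% averaged. Among the markers of other cell types, miR-451a of red blood cells was lower in treated R273H than in treated EV (edgeR adjusted p = 0.00496) on 12 and 6 against 3 and 1 reads, and no other marker was called.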

How the data were processed

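Per the labels and the methods of the study, small RNA of 8 H1299 libraries was sequenced on an Ion PGM instrument. After trimming, the authors used SHRiMP to align reads to miRBase and Novoalign to align the rest to hg19, and scaled the counts of each feature by DESeq size factors. The deposited values are this normalized signal, in 3 tables normalized separately. The deposited tables of the authors' own comparisons (means, folds, p-values) were not used.

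Dividing each value by that of 1 read gave whole numbers throughout (100%, tolerance 0.011), which were taken as the reads. Within a table, limma 3.58.1 (with trend) was run on log2 normalized counts with 1 added, leaving out miRNAs whose mean was under 3. Across the 8 libraries, edgeR 4.0.16 (quasi-likelihood, TMM) was run on the reads, with the same minimum, and both with Benjamini-Hochberg adjustment. Fold changes of low miRNAs are thereby understated. DESeq2 1.42.0 was an alternative, and the scripts were tested on simulated data. Ratios had 0.5 added to each read count and were tested by exact permutation. Of each library, 234545 to 579367 reads were counted on all features; a count of 0 allows up to 3 reads. Named are the members, their 3p arms, miR-1271-5p, the 3 miRNAs most like each member, and of each list those called and a few examples. Members, lists and tests were chosen with earlier results of these data known. Positions are from GENCODE 44 lifted to GRCh37.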

Additional observations from a re-analysis of the deposited data

Results flagged for a closer look

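The ratio of miR-182-5p to miR-183-5p was singled out because its libraries moved in opposite directions with etoposide in the lines. The rule was applied to every member and every ratio between members. In each line, 2 libraries lie apart from 2 others with a probability of 0.333 by chance, so a flag can arise by chance. The share of all miRNAs or ratios that meet the rule was not counted. In EV both treated libraries (1.07 and 1.19) were above both untreated ones (1.06 and 1.01), a mean log2 change of 0.12. The first treated and the first untreated EV library barely differed, with log2 ratios of 0.0936 and 0.0788, so the EV direction rests on a small gap. In R273H both treated libraries (0.862 and 0.815) were below both untreated ones (1.14 and 1.14), a change of -0.45. The changes differed by -0.57 (R273H minus EV), and this difference was not tested.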

How the results depend on the processing

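Over the settings other than leaving out a library, 146 member values kept their direction and their side of the threshold. Of the rest, 14 turned, 3 moved, 3 lost and 2 gained a call. All 18 ratio values kept both, but for most of them this was fixed in advance. Permuting within the other factor or within the replicate number leaves the difference itself unchanged. Neither of these settings can give a p under 0.05, so they say nothing on how stable the ratios are. For the line difference of untreated cells, DESeq2 made miR-96-5p a call (0.67), as it did averaged over both treatments (0.49). The averaged call of miR-182-5p was lost with RLE size factors (-0.53), without a filter (-0.50) and with limma on CPM (-0.38). Limma on CPM also turned miR-183-5p under etoposide (0.10), the averaged etoposide values of miR-96-5p (0.46) and miR-182-5p (0.57) and the response difference of miR-182-5p (0.12). The averaged etoposide value of miR-182-5p, near 0, turned with RLE (0.0121), without a filter (0.0198), with a mean of at least 10 (0.0586) and with DESeq2 (0.0139). Totals without miR-21-5p turned miR-183-5p with etoposide in EV (0.33) and miR-96-5p (0.22) and miR-182-5p (0.46) in R273H. Plain CPM, chosen after seeing the data, gave 0.38, 0.54 and 0.51 for miR-183-5p, miR-96-5p and miR-182-5p in EV and 1.07, 0.39 and 0.62 in R273H. The causes were not tested.

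Leaving out each library in turn, in fits where a lone library is assumed to vary like the others, gave for untreated R273H against EV -0.74 to -0.25 for miR-183-5p, 0.72 to 0.86 for miR-96-5p and -0.57 to -0.14 for miR-182-5p. Under etoposide the ranges were -0.38 to -0.09, -0.0256 to 0.46 and -0.73 to -0.59, and averaged -0.57 to -0.34, 0.35 to 0.53 and -0.70 to -0.50. For etoposide they were -0.30 to 0.22, 0.08 to 0.15 and -0.15 to 0.31 in EV, 0.28 to 0.45, -0.62 to -0.02 and -0.16 to -0.000648 in R273H, 0.05 to 0.28, -0.26 to 0.0163 and -0.10 to 0.0949 averaged, and 0.20 to 0.66, -0.74 to -0.15 and -0.33 to 0.0634 for the response difference. The log2 ratio of miR-96-5p to miR-182-5p stayed between 0.91 and 1.15 between the lines, and with etoposide it ranged from -0.38 to 0.10. The 62 miRNAs called between the untreated lines became 0 without either untreated R273H library and 41 without the second untreated EV library, so the 20.4% rests on these libraries; edgeR called 43 and DESeq2 71, totals without miR-21-5p gave 37 and limma without the trend 39.

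Replicate numbers are shared by the groups, and deviations of same-numbered libraries correlated at -0.379 to 0.258 over 237 miRNAs. This does not settle whether same-numbered libraries were handled together. With the number as a replicate block, 0 miRNAs were called between the untreated lines against 62 without it, and 1 against 10 for etoposide averaged over both lines. For the members the block gave log2 fold changes of -0.49, 0.79 and -0.35 (miR-183-5p, miR-96-5p, miR-182-5p; limma adjusted p = 0.295, 0.125 and 0.419) and kept the averaged call of miR-182-5p (edgeR adjusted p = 0.0374).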
